A study of Mus musculus with 24 samples.

Results

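Adipoq, Cfd, Retn, Fabp4, Ucp1, Cidea, Cidec, Car3, Plin1 and Pck1, 10 genes known from adipose tissue, were followed across 24 Affymetrix arrays of mouse lung RNA. They were chosen by name, and a probe set (the group of short probes that measures 1 transcript) was taken where the array annotation gives it exactly 1 gene symbol and that symbol is one of the 10. Of the 10 genes, 8 had such a probe set, out of 12393 genes that did on this array. They have 13 probe sets in all, out of 22626 that are no array controls. No probe set carries the single symbol Cfd or Plin1 in the annotation used here, and those 2 genes were not analysed here. The arrays form 6 groups of 4. The OVA groups had received 100 ug of ovalbumin (OVA) on 3 days and had breathed filtered air, 500 ug/m3 of diesel exhaust (DE500) or 2000 ug/m3 of diesel exhaust (DE2000) for 4 h a day over 5 days. The saline groups had the same 3 exposures with saline on 3 days in place of OVA. Strain, age, sex, the route of OVA and the way the lungs were dissected are not given in the sources used here. Nothing in the labels says that replicates are separate animals, so p-values measure only the spread between these samples, which may be technical.

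Adipocytes store triglyceride in lipid droplets and secrete hormones. White fat stores energy, and brown fat burns it through an uncoupled mitochondrial membrane. Lung parenchyma holds few adipocytes, but fat lies along the large airways, the hilum and the mediastinum, next to the heart and great vessels. Adipoq encodes the hormone adiponectin, and Retn encodes resistin, which mouse adipocytes secrete. Fabp4 is the fatty acid carrier of adipocytes, and it is also known from capillary endothelium and macrophages. Car3, carbonic anhydrase 3, is abundant in fat, skeletal muscle and liver. Cidec and Cidea are lipid droplet proteins, Cidea being best known from brown fat, and Ucp1 is the uncoupling protein of brown fat. Pck1 makes phosphoenolpyruvate in liver and kidney and supports glycerol synthesis in fat.

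Signals are MAS5 values, a summary of brightness per probe set on a linear scale. Only probe sets whose log2 signal, averaged over the arrays, passed the 40th percentile of all probe sets (a geometric mean of 138) were tested. This left 13575 probe sets, of which 6 belong to the 10 genes: Adipoq (1422651_at), Retn (1449182_at), Fabp4 (1417023_a_at and 1451263_a_at, called probe sets 1 and 2) and Car3 (1449434_at and 1460256_at, likewise 1 and 2). The other 7 lay below the limit: 2 more of Fabp4, 1 each of Ucp1, Cidea and Cidec, and 2 of Pck1. The samples are lung by their leading markers, since surfactant protein gene Sftpc lay between 21129 and 41214 and the club cell gene Scgb1a1 between 18241 and 37883 on all 24 arrays. In whole tissue, fewer cells of a type and less RNA per cell cannot be told apart.

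The start regions of the 2 secreted adipocyte hormones with an entry in the promoter table are shown because their genes moved together on the 2 arrays that stood farthest apart. Each run is 300 bases, 250 before and 50 after the annotated start, from RefSeq (GRCm38.p6), 5′ to 3′ on the plus strand. Capitals mark the pentamer CCAAT or, on the opposite strand, ATTGG. The Adipoq window is chr16:23146286-23146585 and the Retn window chr8:3655520-3655819.
Adipoq: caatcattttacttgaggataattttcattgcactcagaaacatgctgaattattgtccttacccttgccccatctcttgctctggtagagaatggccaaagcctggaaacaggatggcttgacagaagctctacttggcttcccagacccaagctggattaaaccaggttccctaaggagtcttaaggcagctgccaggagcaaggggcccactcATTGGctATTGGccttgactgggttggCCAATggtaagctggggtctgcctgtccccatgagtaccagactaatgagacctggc
Retn: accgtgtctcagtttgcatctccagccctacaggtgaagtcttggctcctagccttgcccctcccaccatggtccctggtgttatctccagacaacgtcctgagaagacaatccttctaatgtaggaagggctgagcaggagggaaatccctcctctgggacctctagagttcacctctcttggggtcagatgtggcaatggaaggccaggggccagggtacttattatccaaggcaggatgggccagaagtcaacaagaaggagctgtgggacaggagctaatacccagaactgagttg
The Adipoq window held 3 matches, which begin at 34, 27 and 7 bases before the start, and the Retn window held 0. The pentamer occurred on either strand in 37.4% of the 32851 promoter windows of that table, and a match is a description of the letters only.

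The 6 tested probe sets differed far more between arrays of one group than most genes did, and a few arrays carried most of that spread. Adipoq was at 283, 358, 344 and 399 on the 4 arrays of air with OVA, at 291, 299, 282 and 1327 in DE500 with OVA, and at 347, 397, 411 and 584 in DE2000 with OVA. In saline it was at 250, 241, 327 and 299 in air, at 195, 237, 231 and 230 in DE500, and at 568, 71.9, 242 and 304 in DE2000. Replicate 4 of DE500 with OVA was the highest of the 24 arrays and replicate 2 of DE2000 with saline the lowest, an 18.4-fold range.

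Car3 probe set 1 showed the same ends. Its signals were 2266, 2714, 2694 and 2267 in air with OVA, 2431, 2403, 2352 and 7443 in DE500 with OVA, and 2473, 3266, 2179 and 4135 in DE2000 with OVA. Its saline signals were 2001, 1623, 1871 and 2199 in air, 1628, 2086, 1956 and 1666 in DE500, and 3396, 516, 1590 and 2427 in DE2000. Apart from the high replicate 4 in DE500 with OVA and the low replicate 2 in DE2000 with saline, all 22 values lay between 1590 and 4135. Car3 probe set 2 ran between 180 and 2216 and had its lowest and highest values on the same 2 arrays.

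Fabp4 probe set 1 read 1128, 1446, 1190 and 1152 in air with OVA, 1140, 1021, 898 and 3718 in DE500 with OVA, and 1046, 1059, 936 and 2398 in DE2000 with OVA. In saline it read 1277, 1285, 1900 and 1290 in air, 1784, 1071, 1073 and 1584 in DE500, and 3107, 580, 1242 and 1878 in DE2000. Replicates 4 of both diesel groups with OVA stood above the other 3 of their group, and the groups overlapped. Fabp4 probe set 2 ran between 234 and 1627, again from replicate 2 of DE2000 with saline to replicate 4 of DE500 with OVA.

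Retn varied least of the 4 tested genes. It was at 473, 484, 596 and 373 in air with OVA, at 484, 519, 562 and 1066 in DE500 with OVA, and at 449, 410, 588 and 635 in DE2000 with OVA. In saline it was at 590, 447, 729 and 652 in air, at 439, 481, 665 and 537 in DE500, and at 926, 251, 607 and 634 in DE2000. Its range was 4.25-fold, with the same 2 arrays at the ends.

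**Figure D1:**
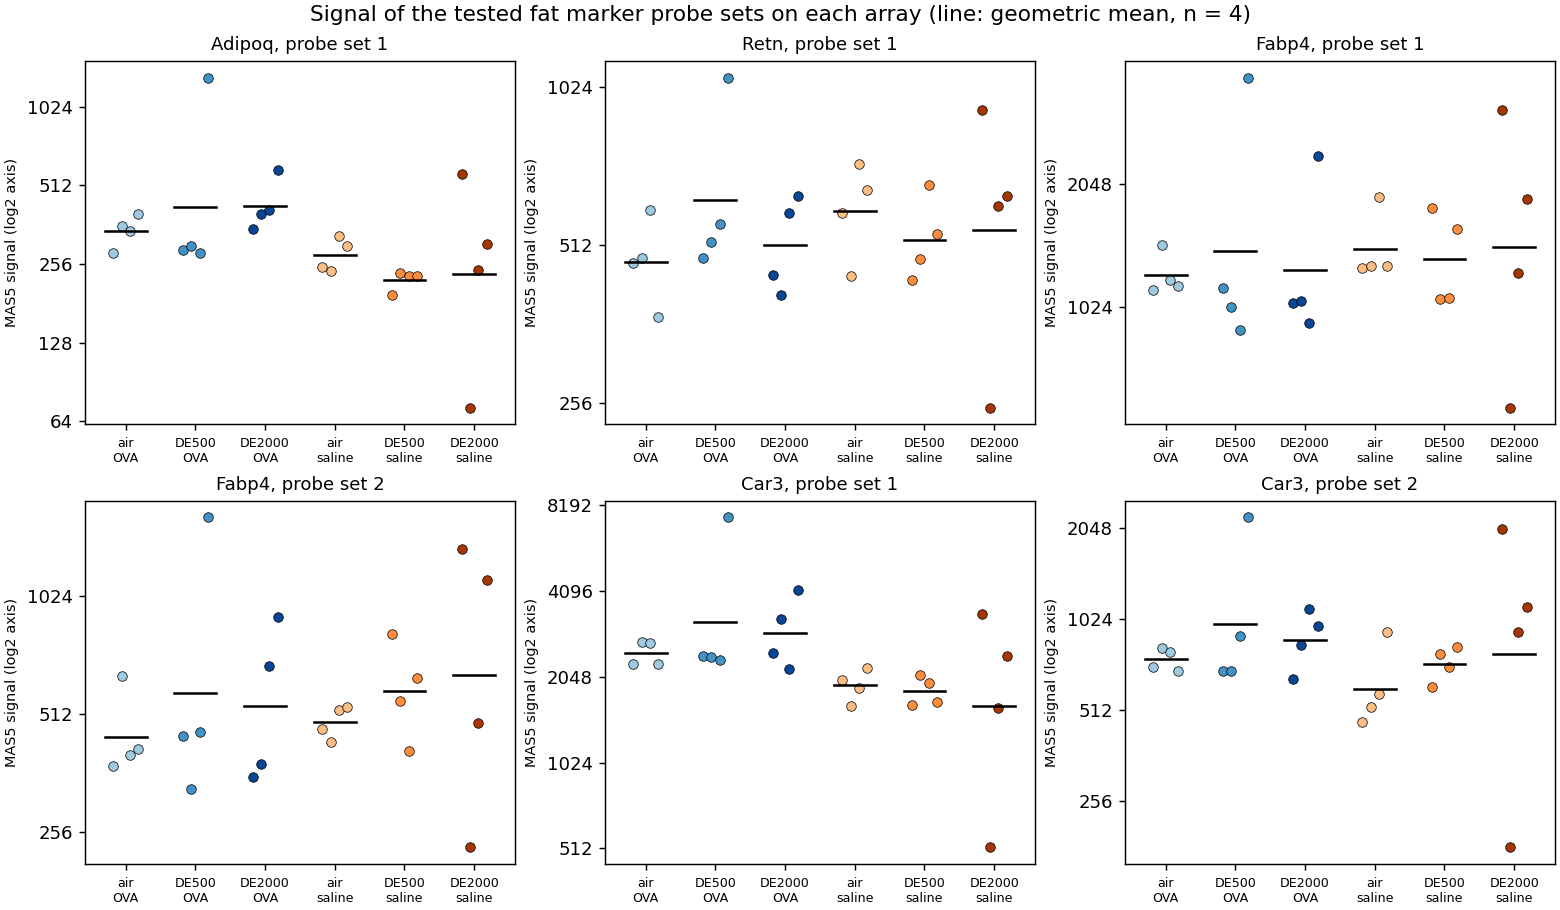
MAS5 signal (log2 axis) of the 6 tested fat marker probe sets on each of the 24 arrays, with points for arrays and lines for the geometric mean of 4. Replicate 4 of DE500 with OVA is the top point and replicate 2 of DE2000 with saline the bottom point in all 6 panels.

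Replicate 4 of DE500 with OVA was the highest of 24 for all 6 tested probe sets, at 1.94 to 4.44 times the median of the 24 arrays and 2.05 to 4.57 times the geometric mean of the other 3 arrays of its group. Replicate 2 of DE2000 with saline was the lowest of 24 for all 6, at 0.228 to 0.490 of the median. Replicate 1 of DE2000 with saline was above the median for all 6, at 1.50 to 2.82 times, and so were replicate 4 of DE2000 with OVA, at 1.16 to 1.97 times, and replicate 4 of DE2000 with saline, at 1.02 to 2.35 times. The high and the low array of DE2000 with saline thus belong to one group and one treatment. Among all 8315 tested genes, each by its brightest probe set, 4.61% were highest on replicate 4 of DE500 with OVA and 3.75% were lowest on replicate 2 of DE2000 with saline.

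The standard deviation (SD) of log2 signal around the 6 group means was 0.70 for Adipoq, 0.45 for Retn, 0.66 and 0.72 for Fabp4 probe sets 1 and 2, and 0.62 and 0.73 for Car3 probe sets 1 and 2. The median of the 6 was 0.68, beside 0.28 over all tested probe sets. Adipoq exceeded 96.1% of the tested probe sets in this spread, Retn 86.1%, and the Fabp4 and Car3 probe sets between 94.3% and 96.7%. Without the 4 arrays farthest from the Adipoq median (replicate 4 of DE500 with OVA, replicate 4 of DE2000 with OVA, and replicates 1 and 2 of DE2000 with saline, picked after their values were seen) the SD was 0.17 for Adipoq, 0.25 for Retn, 0.27 and 0.41 for Fabp4 and 0.21 and 0.29 for Car3. The median then was 0.26. The 4 arrays were picked for their distance in Adipoq, so its lower SD was fixed by that choice. The spread of all tested probe sets without them was not worked out, so 0.26 has no background here.

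**Figure D2:**
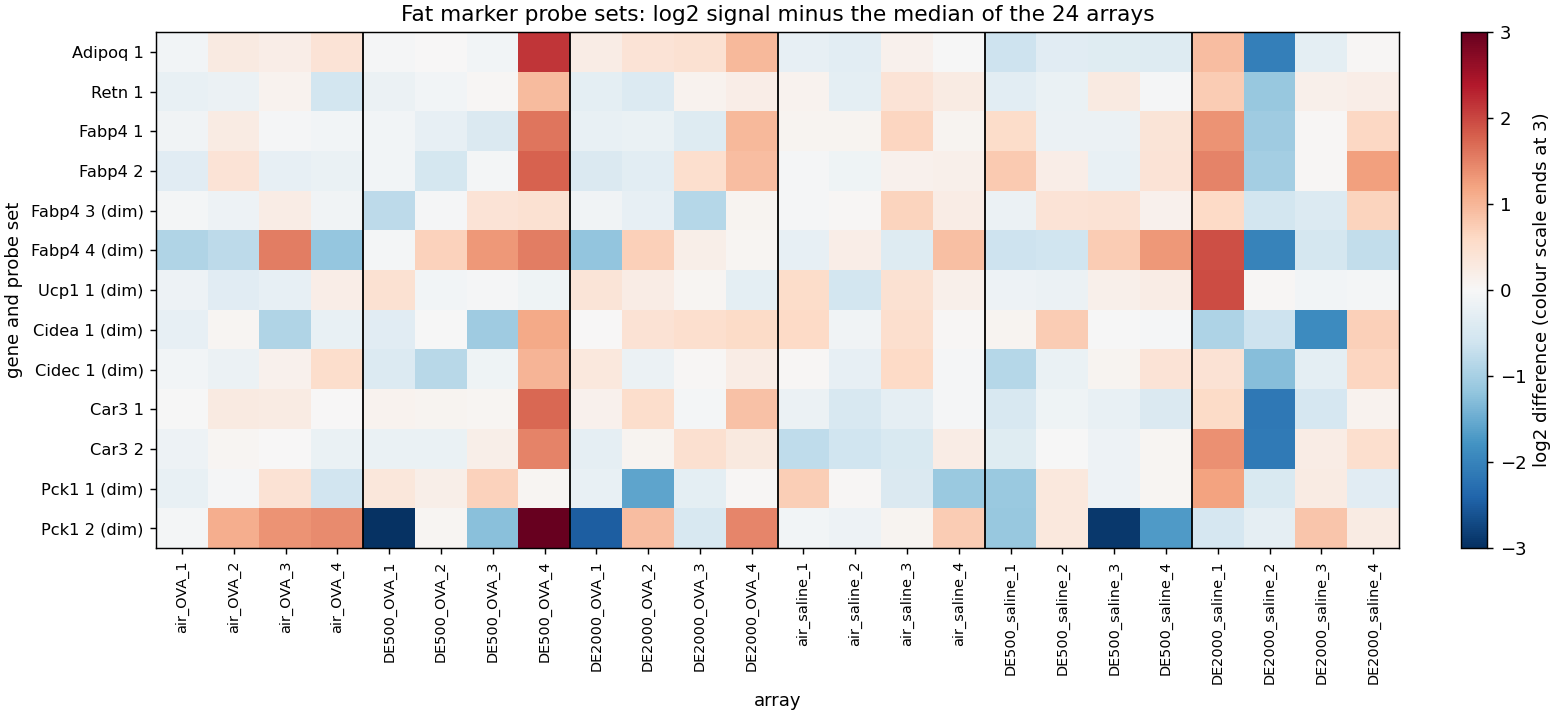
Log2 signal of each of the 13 fat marker probe sets minus its median over the 24 arrays (colour scale ends at 3, which the weak second Pck1 probe set passes), with arrays in columns and black lines between groups. The column of replicate 4 of DE500 with OVA is red and that of replicate 2 of DE2000 with saline blue in all rows of Adipoq, Retn, Car3 and Cidec and in the 2 tested rows of Fabp4, while the dim row of Ucp1 is near white in both columns.

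The lipid droplet and brown fat members were weak. Cidec, which enlarges lipid droplets, had a geometric mean signal of 129.5, just under the limit for testing, and ran between 53.5 and 266 with a median of 130. Its lowest and highest arrays were the same 2 as for Adipoq. Cidea ran between 18.9 and 153 with a median of 70.0; it too was highest on replicate 4 of DE500 with OVA, but its lowest array was replicate 3 of DE2000 with saline.

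Ucp1 lay between 6.65 and 14.1 on 23 arrays and at 37.3 on replicate 1 of DE2000 with saline, all far below the limit for testing. That array was 3.86 times the Ucp1 median of 9.68. Pck1 ran between 19.3 and 134 on its first probe set (1455209_at), and between 1.83 and 183 on its second (1423439_at), whose highest value was on replicate 4 of DE500 with OVA. The 2 Pck1 probe sets were highest on different arrays. The 2 dim Fabp4 probe sets (1425809_at and 1424155_at) ran between 59.7 and 173 and between 7.50 and 115. When limma was run on all 22626 probe sets, the smallest adjusted p of these 7 over 9 comparisons of groups was 0.143, for Cidea in OVA against saline under DE2000 (log2 fold change 1.05 ± 0.45, SE), where 10.7% of all probe sets had an adjusted p below 0.05.

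Across arrays the other members followed Adipoq to very different degrees, Car3 most closely. Car3 (probe set 1) had a Pearson r of 0.96 with Adipoq in log2 signal over 24 arrays and a Spearman rho of 0.82 (permutation test, both p = 1e-05, the smallest that 100000 permutations can give; adjusted p = 7e-05 over 7 relations for each). Cidec had r = 0.73 (adjusted permutation p = 0.00037) and rho = 0.57 (adjusted p = 0.0148). Fabp4 (probe set 1) had r = 0.72 (adjusted permutation p = 0.00037) but rho = 0.29 (adjusted p = 0.305), and Retn had r = 0.72 (adjusted permutation p = 0.00086) but rho = 0.33 (adjusted p = 0.271). Ucp1 (r = 0.16, rho = 0.06), Cidea (r = 0.35, rho = 0.25) and Pck1 (r = 0.15, rho = -0.04) had adjusted permutation p between 0.138 and 0.475 for r and between 0.326 and 0.868 for rho.

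Without the 2 arrays farthest from the Adipoq median, which are replicate 4 of DE500 with OVA and replicate 2 of DE2000 with saline, Car3 kept r = 0.85 over 22 arrays (adjusted permutation p = 7e-05). Cidec then had r = 0.44 (adjusted permutation p = 0.144), Fabp4 r = 0.39 (adjusted p = 0.147) and Retn r = 0.29 (adjusted p = 0.275), so these 3 relations did not hold over all groups together without those 2 arrays, which were left out for their Adipoq values. Without the 4 arrays named above, Car3 had r = 0.74 over 20 arrays (adjusted permutation p = 0.00196), while Fabp4 had r = -0.28 and Retn r = -0.14 (adjusted p = 0.501 and 0.582).

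Taken as deviations from the group means, which sets differences between treatments aside, Fabp4, Retn and Cidec followed Adipoq more closely than over the raw values. Since the deviations of a group sum to 0, an array far from its group also shifts the other 3, and permutation p-values are approximate here. Over 24 arrays r was 0.95 for Car3 (rho = 0.85), 0.90 for Fabp4 (rho = 0.72), 0.88 for Retn (rho = 0.73) and 0.81 for Cidec (rho = 0.70), with an adjusted permutation p of 3.5e-05 for each r and of at most 0.00054 for each rho. Without the 2 farthest arrays, a setting chosen after the values were seen, Car3 had r = 0.77 (adjusted permutation p = 0.00014), Fabp4 r = 0.71 (adjusted p = 0.00101), Retn r = 0.60 (adjusted p = 0.00597), Ucp1 r = 0.58 (adjusted p = 0.0134, but rho = 0.30 with adjusted p = 0.213) and Cidec r = 0.44 (adjusted p = 0.0606). Within groups, the relations of Car3, Fabp4 and Retn with Adipoq thus held without those 2 arrays. Without the 4 arrays none passed: Cidec had r = 0.57 (adjusted permutation p = 0.0609), Cidea 0.46 and Car3 0.44 (adjusted p = 0.126 for each), Retn 0.33 (adjusted p = 0.278) and Fabp4 0.23 (adjusted p = 0.340). The Car3 relation of the 20 arrays was therefore lost, and the signs of Fabp4 and Retn turned, once group means were removed.

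Within each arm Car3 had the highest r with Adipoq, and the order of the other members differed between the arms. Among the 12 OVA arrays r with Adipoq was 0.93 for Car3, 0.90 for Fabp4, and 0.77 for each of Retn, Cidec and Cidea (adjusted permutation p between 0.00576 and 0.0348), of which Cidea also had a high rank correlation (rho = 0.87, adjusted p = 0.00364). Among the 12 saline arrays r was 0.96 for Car3, 0.94 for Retn, 0.87 for Fabp4 and 0.81 for Cidec (adjusted permutation p between 0.00056 and 0.00439), and 0.07 for Cidea (adjusted p = 0.809). Ranks gave weaker relations. Among OVA arrays rho was 0.46 for Car3, 0.52 for Fabp4, 0.59 for Cidec and 0.27 for Retn. None of these 4 passed (adjusted permutation p between 0.158 and 0.471). Among saline arrays rho was 0.80 for Retn, 0.69 for Cidec and 0.67 for Car3 (adjusted permutation p between 0.0216 and 0.0463). For Fabp4 it was 0.63 there (adjusted permutation p = 0.0568). Each arm holds one of the 2 extreme arrays.

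**Figure D3:**
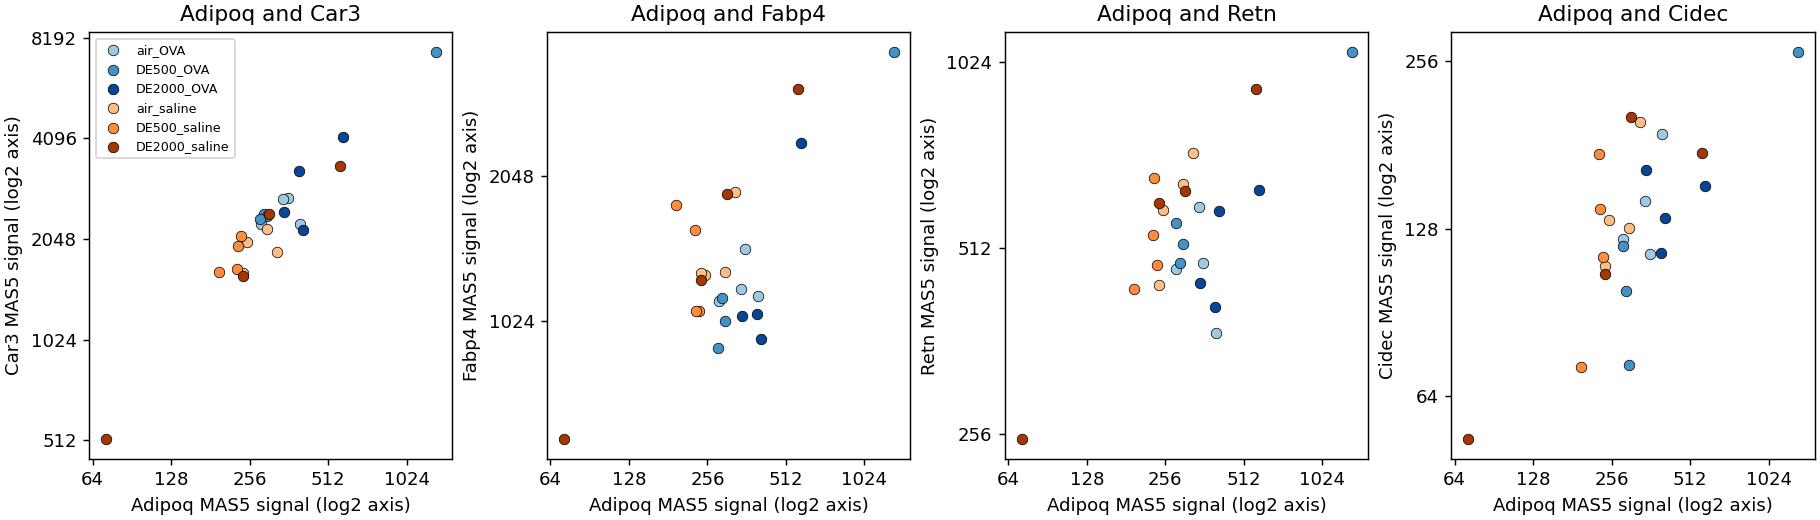
MAS5 signal of Car3, Fabp4, Retn and Cidec against that of Adipoq on the 24 arrays (both axes log2), coloured by group. All 4 panels have the same top right and bottom left arrays, and over the other 22 arrays r is 0.85 for Car3, 0.39 for Fabp4, 0.29 for Retn and 0.44 for Cidec, with all groups together.

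Diesel exhaust left no fat marker called at either dose. A call is a two-sided limma test with an adjusted p (Benjamini-Hochberg over the 13575 probe sets) below 0.05. For DE500 against air, 0 of the 6 probe sets was called in OVA, where 0% of all tested probe sets were called (0.921% had an unadjusted p below 0.05, and 0 of the 6 did), and 0 of 6 in saline, where 0.00737% were. For DE2000 against air, 0 of 6 was called in OVA (background 0.0221%), in saline (0.147%) and over the mean of both arms (0.0884%). Counts of 0 in these comparisons are therefore what nearly every gene showed.

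The sizes were small against the spread. Adipoq gave a log2 fold change of 0.31 ± 0.45 (SE) for DE2000 against air in OVA and -0.24 ± 0.45 in saline, with 95% confidence intervals of -0.62 to 1.25 and -1.18 to 0.69. Car3 probe set 1 gave 0.24 ± 0.40 in OVA and -0.25 ± 0.40 in saline for the same dose. Retn, the steadiest of the 4 genes, gave 0.11 ± 0.30 in OVA and -0.12 ± 0.30 in saline. Over all 6 probe sets and both doses the log2 fold changes lay between -0.32 and 0.40. In DE500 with saline all 4 Adipoq arrays lay below all 4 of air with saline, with geometric means of 222 and 277, and 1.84% of tested probe sets lay that way; limma gave -0.32 ± 0.45 (adjusted p = 0.942).

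OVA was set against saline at each exposure and over the mean of the 3 exposures. Adipoq was higher with OVA over the mean, at a geometric mean signal of 396 on the 12 OVA arrays and 244 on the 12 saline arrays. Its log2 fold change was 0.70 ± 0.26 (SE), a 1.63-fold difference (limma, adjusted p = 0.0313). Car3 probe set 1 was higher as well, at 2844 on OVA arrays and 1778 on saline arrays, with 0.68 ± 0.23 or 1.60-fold (adjusted p = 0.0193). The second Car3 probe set gave 0.31 ± 0.27 (adjusted p = 0.369), with geometric means of 865 and 699.8, so the 2 probe sets of this gene differed in the call.

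The other members did not pass. Retn gave -0.06 ± 0.17 (95% interval -0.41 to 0.30, limma adjusted p = 0.811), with geometric means of 533 on OVA and 554 on saline arrays. Fabp4 gave -0.11 ± 0.24 (-0.61 to 0.39, adjusted p = 0.731) and -0.14 ± 0.27 (-0.69 to 0.42, adjusted p = 0.704) on its 2 tested probe sets. Thus 2 of 6 probe sets were called, and 46.3% of all tested probe sets were called in the same comparison, so that the count is no more than the background. Whether the members differ from each other in this response was not tested.

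At single exposures no fat marker was called, with 14.8% of tested probe sets called in air, 12.5% in DE500 and 18.1% in DE2000. Adipoq gave 0.31 ± 0.45 in air, 0.93 ± 0.45 in DE500 and 0.86 ± 0.45 in DE2000 (limma adjusted p = 0.666, 0.157 and 0.190). Car3 probe set 1 gave 0.37 ± 0.40, 0.80 ± 0.40 and 0.86 ± 0.40 (adjusted p = 0.537, 0.168 and 0.139). In DE500 all 4 OVA arrays lay above all 4 saline arrays for both of these probe sets (7.15% of tested probe sets did so), and in air for Car3 probe set 1 (15.3% did so). The difference of the OVA effect between exposures, an interaction, was 0.63 ± 0.64 for Adipoq at DE500 against air and 0.56 ± 0.64 at DE2000 against air (adjusted p = 0.9996 and 0.955), and no probe set of any gene was called there (419 and 829 had an unadjusted p below 0.05).

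**Figure D4:**
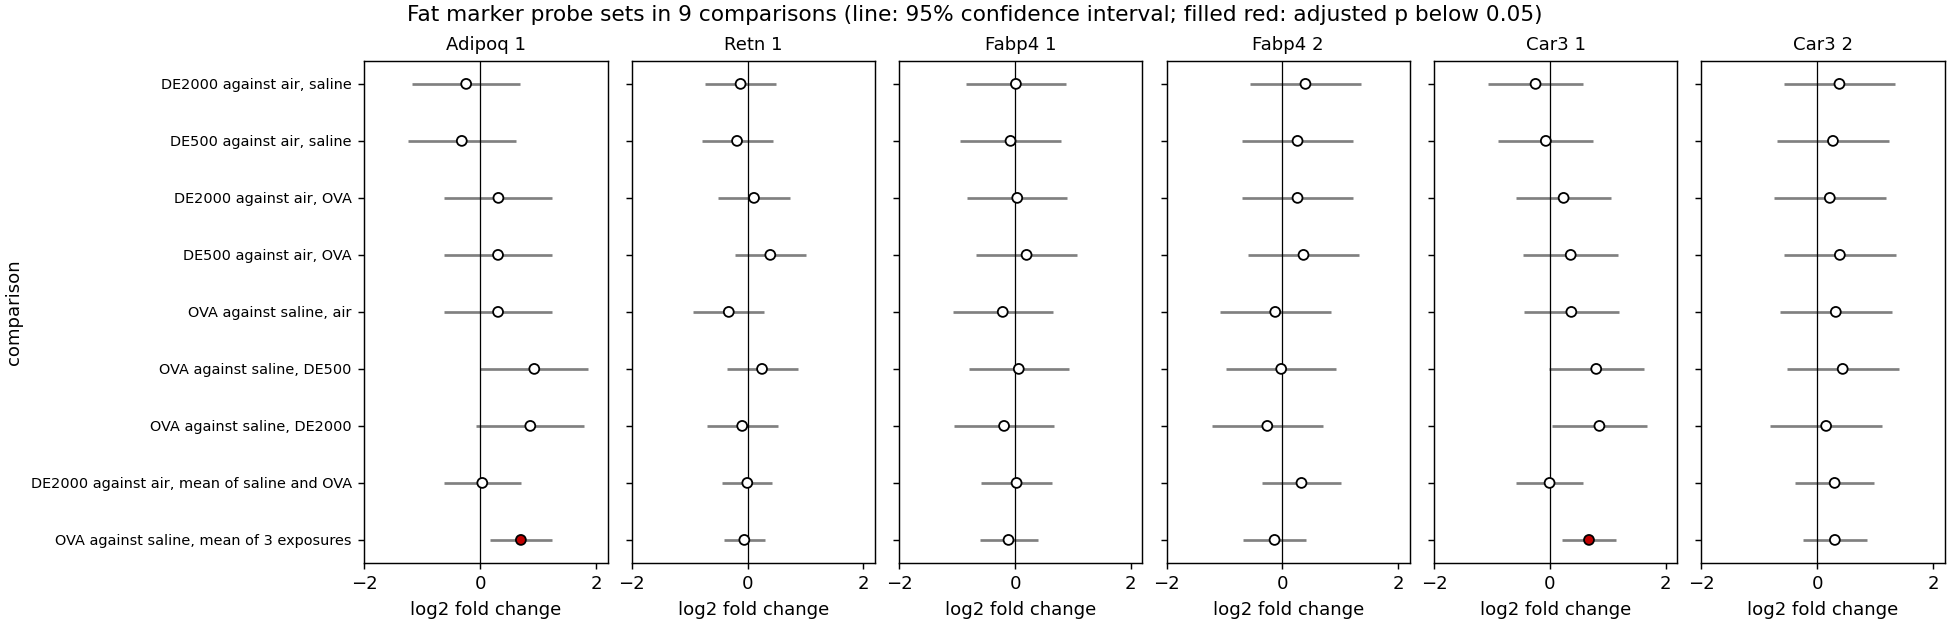
Log2 fold change (points) with 95% confidence interval (lines) of the 6 tested fat marker probe sets in 9 comparisons, from limma on 24 arrays. Only Adipoq and Car3 probe set 1 in OVA against saline over the mean of 3 exposures are filled (adjusted p below 0.05), at 0.70 and 0.68.

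Single arrays decided the Adipoq call. Without replicate 4 of DE500 with OVA its log2 fold change was 0.52 (limma adjusted p = 0.0544), and without replicate 2 of DE2000 with saline it was 0.51 (adjusted p = 0.0505). Car3 probe set 1 stayed called with any single array left out. Without the 4 arrays apart, both were still higher with OVA, and both tested Fabp4 probe sets became called as lower with OVA, at -0.40 (adjusted p = 0.0103) and -0.45 (adjusted p = 0.0403), so that the members then moved in opposite directions. Signs of RNA quality also ran with the arms. The log2 ratio of 3′ to 5′ control probe sets, averaged over Gapdh and actin, was -0.13 to 0.20 on 11 OVA arrays and 2.02 on replicate 4 of DE2000 with OVA, against 0.10 to 4.38 on the saline arrays. With that ratio as a covariate Adipoq gave 0.80 (limma adjusted p = 0.123) and Car3 probe set 1 0.71 (adjusted p = 0.123), so both calls were lost. Over all alternatives the Adipoq difference lay between 0.40 and 0.84 (adjusted p between 0.00245 and 0.123) and that of Car3 probe set 1 between 0.39 and 0.80 (adjusted p between 0.00342 and 0.123). On the extreme arrays the ratio was 0.06 on replicate 4 of DE500 with OVA, and 2.04 and 1.61 on the high and the low array of DE2000 with saline.

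Other genes of fat were described from a list of 36 genes of white fat and lipid synthesis, of which 26 were tested. Their summed signal was 46912 on replicate 4 of DE500 with OVA, 45090 on replicate 4 of DE2000 with OVA and 43957 on replicate 1 of DE2000 with saline, the highest 3 of 24, in the same 3 arrays that led the summed signal of Adipoq, Retn, Fabp4 and Car3. On replicate 2 of DE2000 with saline it was 38546, rank 14, where the sum over the 4 members was the lowest of 24. The next array in the list, replicate 4 of air with saline, had 43544. A sum is led by the brightest genes. By the mean centred log2 signal, in which each gene counts alike, these 3 arrays had ranks 1, 3 and 5 (0.19, 0.17 and 0.14), and the low array had rank 22 (-0.15). Of the 26 genes, 5 were highest on replicate 4 of DE500 with OVA (19.2%, beside 4.61% of all tested genes), named here after their values were seen. They are Lipe (hormone-sensitive lipase, at most 845), Lpl (lipoprotein lipase, at most 7839), Fasn (fatty acid synthase, at most 3006), Me1 (malic enzyme, at most 1091) and Lgals12 (an adipocyte galectin, at most 272). Lep, the adipocyte hormone leptin, was too dim to test, at 10.7 to 58.1, and its highest value was on that array also. Several genes of the list, such as Scd1, Fasn and Lpl, are also known from alveolar type II cells or macrophages.

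The list as a whole moved little with OVA over the mean of 3 exposures, but more in some single comparisons. For DE500 against air in saline, 4 of 26 genes had a log2 fold change above 0 (median -0.23), beside 44.0% of all tested genes. With OVA against saline it was 9 of 26 in air (median -0.15, beside 46.6%), 19 of 26 at DE500 (0.20, beside 49.2%) and 8 of 26 at DE2000 (-0.12, beside 45.0%). These counts are a description with no test. For OVA against saline over the mean of 3 exposures, 4 of 26 genes were higher and 4 lower by limma (22.7% and 23.6% of tested probe sets were), and the median log2 fold change was -0.03, the same as over all genes at 2 decimals. Me1 (0.78), the lipase inhibitor G0s2 (0.67), Mest (0.36) and the citrate lyase Acly (0.35) rose, and the triglyceride-forming Dgat1 (-0.70), the droplet coat protein Plin4 (-0.53), the integrin Itga7 (-0.39) and monoglyceride lipase Mgll (-0.38) fell (adjusted p between 7.29e-06 and 0.0270). In the list of brown fat and thermogenesis 12 of 25 genes were tested. In the same comparison 2 of the 12 were higher and 4 lower by limma (adjusted p below 0.05), beside the same 22.7% and 23.6%. Their median log2 fold change was -0.08. Acadm and Pdk4, of fatty acid oxidation and its control, rose (0.33 and 0.50), and Ppargc1b, Kcnk3, Slc25a20 and Letm1 fell (-0.90, -0.96, -0.45 and -0.31). In the comparisons of diesel exhaust with air, 0 genes of either list were called.

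**Figure D5:**
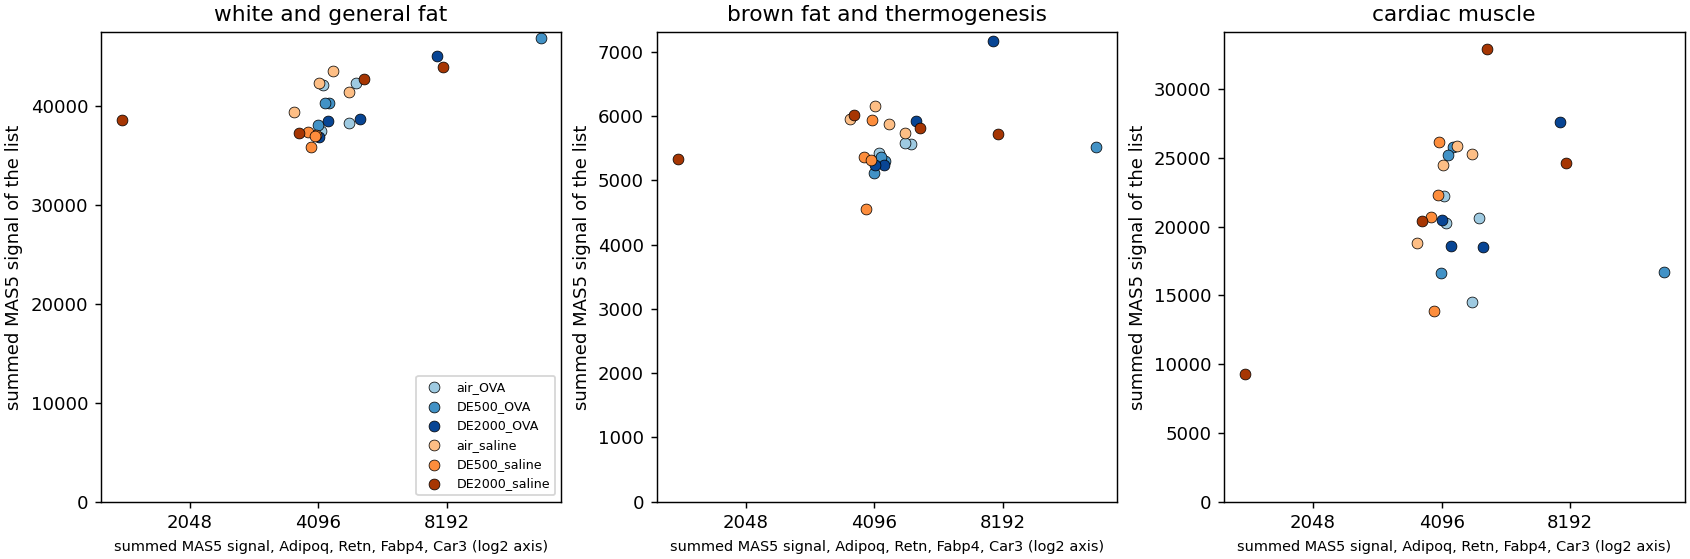
Summed MAS5 signal of the tested genes of the white fat (26), brown fat (12) and heart muscle (13) lists against the summed signal of Adipoq, Retn, Fabp4 and Car3 (log2 x axis) on the 24 arrays. The 3 arrays highest in the members are also the 3 highest in the white fat list, whereas the heart muscle sum is 9286 on the array lowest in the members and 16710 on the array highest in them.

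Markers of heart muscle were lowest on the array lowest in the members. At the high end they were high on some of the arrays and not on others. Which tissue the heart muscle signals come from was not tested. Of 15 heart muscle genes 13 were tested, and 12 of them (92.3%, beside 3.75% of all tested genes) were lowest of 24 on replicate 2 of DE2000 with saline, the exception being the atrial peptide gene Nppa. There the heart sum was 9286, and on the other arrays it lay between 13848 and 32937. The atrial light chain Myl4 was at 1127 there, against a median of 2730, and the atrial sarcolipin Sln at 438, against a median of 1459. On replicate 4 of DE500 with OVA, the highest in fat markers, the heart sum was 16710, rank 20 of 24, and none of the 13 genes was highest there. On replicate 1 of DE2000 with saline, with rank 2 in the members, the heart sum was 24632 (rank 8). On replicate 4 of DE2000 with OVA, with rank 3 in the members, it was 27632 (rank 2). On replicate 4 of DE2000 with saline, with rank 4 in the members, it was 32937 (rank 1). Over all 24 arrays the log2 sums of heart genes and of the members had r = 0.43, and 0.36 without the 2 extreme arrays, as a description. No heart gene was at 0 on any array. The brown fat sum was 5523 on replicate 4 of DE500 with OVA (rank 13), and 7172 on replicate 4 of DE2000 with OVA, the highest of 24.

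Lists of lung cell types did not run with the members. The correlation of each tested gene with the mean centred log2 signal of the 4 tested member genes, given as a description over 24 arrays that share their scaling, had a median of 0.02 for 12 lung epithelial genes, -0.01 for 12 capillary endothelial genes and -0.08 for 7 alveolar macrophage genes. The median was 0.37 for heart muscle, 0.30 for 4 skeletal muscle genes, 0.27 for white fat, 0.14 for brown fat and -0.01 over all 8311 other genes. The log2 sums of the lists gave another order, with white fat first. With the sum of the members r was 0.64 for white fat (rho = 0.73) and 0.43 for heart muscle (rho = 0.34). It was 0.35 for skeletal muscle (rho = 0.44) and 0.30 for brown fat (rho = 0.24), as a description. On the low array the summed signal of capillary endothelium was 55157 (rank 3) and of lung epithelium 190403 (rank 6). By the mean centred log2 signal they had ranks 18 (-0.06) and 8 (0.04) of 24, so for endothelium the 2 measures differed. Both tested Fabp4 probe sets were lowest of 24 on that array, and 0 of the 12 endothelial genes were.

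The gene most like the members was Cyp2e1, a cytochrome P450 of liver that is also known from fat and airway cells. Its r with that mean was 0.90 over 24 arrays and 0.85 without the 2 extreme ones. It ran between 424 and 2929 with a median of 736, highest on replicate 4 of DE500 with OVA and lowest on replicate 2 of DE2000 with saline, as the members were. It was the only one of 8311 genes with r above 0.7 in both settings. Next came Ift88 (0.73, and 0.24 without the 2 arrays), the lipogenic regulator Thrsp (0.68 and 0.77), the protease Capn12 (0.68 and 0.28), the lymphocyte receptor Cd160 (0.68 and 0.27), the desaturase Scd1 (0.67 and 0.55), the retinol carrier Rbp4 (0.66 and 0.38), the matrix proteoglycan Dcn (0.66 and 0.28), Vangl1 (0.64 and 0.46) and the mast cell protease Cpa3 (0.64 and -0.13). Of these 10, Cyp2e1, Thrsp and Scd1 kept r above 0.5 without the 2 arrays. Thrsp ran between 353 and 1466 and Scd1 between 4246 and 8925, both highest on replicate 1 of DE2000 with saline.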

How the data were processed

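Lung RNA (2 ug) was labelled and hybridised by the authors, per the labels' protocols. The deposited intensity values are MAS5 signals on a linear scale, per the submitters' processing notes; their version is not named there. Means without the lowest and highest 2% of each array were 499.95 to 499.97, so arrays were already scaled, and array medians ran between 182 and 243. Pairs of arrays correlated at 0.88 to 0.96. The number of arrays limits the precision.

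Of 22690 probe sets 64 are controls. Of the rest, 20380 have 1 gene symbol, 691 several and 1555 none. Signals were taken to log2 with no pseudocount and fitted with 1 mean per group over 24 arrays in limma 3.58.1 (R 4.3.3, with lmFit, contrasts.fit and eBayes with trend). Tests were two-sided and adjusted by Benjamini-Hochberg over the tested probe sets of each comparison. The fit was also run on simulated data with independent normal noise. Such data lack the extreme arrays that the members share, so that run does not bear on them. A gene with several probe sets was taken by its brightest in correlations and lists. Python 3.11.15 with pandas 2.3.3, scipy 1.17.1 and matplotlib 3.10.9 served for the rest. All 10 members were named whatever their values, with the 10 other genes most like them and, from lists, defining markers and genes of smallest p; further genes are said to be named after their values were seen. The OVA response of lists is given for all called genes. Members and lists were chosen with earlier results of these data known. The alternatives were quantile normalization, median scaling, a pseudocount of 50, no filter or one at the 60th percentile, array weights, fits of the compared groups alone or with no trend, the replicate number as a block, the 3′/5′ ratio as a covariate, the second probe set of a gene and leaving out each array. Leaving out the 4 arrays apart was chosen after seeing the data.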

Additional observations from a re-analysis of the deposited data

Results flagged for a closer look

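Within each group of 4 arrays, the highest and the lowest log2 signal of each of the 13 probe sets were compared with their neighbour. The measure was the gap over the group's range, both in log2 signal, so linear signals can give other shares. Of 78 such groups 9 (11.54%) passed Dixon's 95% critical value, where chance gives about 1 in 20 for independent, normal values. The 78 groups share the same arrays and are not independent. The share that passes over all tested probe sets was not worked out, so the count does not set the members apart from other genes. Replicate 4 of DE500 with OVA stood above its group in Adipoq (gap share 0.9618, signal 1327), Fabp4 probe set 1 (0.8318, 3718) and Car3 probe set 1 (0.9712, 7443). Fabp4 probe set 1 also had a high array in DE2000 with OVA (replicate 4, 0.8693, 2398) and in air with saline (replicate 3, 0.974, 1900). Adipoq had a low array in DE500 with saline (replicate 1, 0.8423, 195). Among probe sets too dim to test, Ucp1 had a high array in DE2000 with saline (replicate 1, 0.9464, 37.3), Cidea in DE500 with saline (replicate 2, 0.8366, 118) and Fabp4 probe set 1424155_at in air with OVA (replicate 3, 0.8622, 86.6). DE2000 with saline holds both a high and a low array for the tested probe sets, and no gap there passed for any of the 6.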

How the results depend on the processing

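No result changed its direction among those called. Of 2 fat marker probe sets called in OVA against saline over the mean of 3 exposures, 1 stayed called with the filter at the 60th percentile, which leaves Adipoq out, and 1 with array weights (Adipoq 0.62, adjusted p = 0.0582), while 0 were left in the fit that included the 3′/5′ ratio. The count was 4 without the 4 arrays apart, and ran between 1 and 2 over leaving out each array, at 1 without replicate 4 of DE500 with OVA or replicate 2 of DE2000 with saline. OVA against saline in air gave 1 call (Car3 probe set 1, adjusted p = 0.0430) with only the groups compared fitted, and in DE2000 the count was 0 to 1 over leaving out each array, the call being Car3 probe set 1 (1.22, adjusted p = 0.0432) without replicate 1 of DE2000 with saline. The cause of these changes was not tested. The median spread of 0.68 ran between 0.50 and 0.70 over leaving out each array, at 0.55 without replicate 4 of DE500 with OVA and 0.50 without replicate 2 of DE2000 with saline, and was 0.26 without the 4 arrays apart. The number of members whose r with Adipoq passed was 4, stayed at 4 over leaving out each array, and was 1 without the 4 arrays apart (0 on deviations from the group means there). The remaining 361 values of counts, spread and relations were unchanged by the measure used (a count within 1.5 times), as were 1872 of single probe sets. An uncalled probe set counted as unchanged if it shifted by less than its SD around the group means. A change of sign can pass that measure. For OVA against saline over the mean of 3 exposures, Fabp4 probe set 1 lay between -0.40 and 0.34 over all alternatives. Fabp4 probe set 2 lay between -0.45 and 0.26.

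The labels do not say that replicate numbers pair the arrays, and pairing was not tested. Deviations of arrays with the same number correlated at 0.03 on average (-0.43 to 0.59 over 60 pairs), beside -0.01 for other numbers. Each array was also averaged against the arrays of each number in the other groups. For 11 of 24 arrays the highest of the 4 means was with their own number, and whether that is more than chance gives was not tested. With the number as a block, 2 probe sets were called in OVA against saline over the mean and no call of a fat marker changed. With 4 arrays a group and an SE near 0.45, a difference of Adipoq between 2 groups had to be large to be called. Dim members were limited by background.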
